A study of Homo sapiens with 2 samples.

Results

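TPM4, which encodes a tropomyosin, was 2.20 times as high in the library of H1299 cells with PHF12 knocked down as in the control library, while 9 other genes of the actin filament stayed between 0.853 and 1.17 times the control level. The 10 genes described here are the tropomyosins TPM1, TPM2, TPM3 and TPM4, the cytoplasmic actins ACTB and ACTG1, the actin-binding protein genes CALD1, CFL1 and PFN1, and the myosin light chain gene MYL9. They were taken by symbol from a table of 38637 genes, and all 10 were among the 14559 genes averaging at least 1 CPM (count per 1000000 counts). The group was chosen by a measured value: TPM4 was already known to be among the highest genes of the knockdown library. Its own ratio is therefore a description and supports nothing further.

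RNA-seq after poly(A) selection was done on H1299, an established line of non-small cell lung carcinoma, with 1 library per group and 2 in all. Both groups are labelled wild type. The control is labelled as having no treatment, although its title ends in nc, and the other library is labelled PHF12 KD, with the prefix si in its title. The study asks how PHF12, a subunit of a Sin3 and histone deacetylase corepressor complex, acts on HDAC1 and on EGFR and AKT signalling. The libraries summed to 24740581 counts (control) and 26084594 counts (knockdown). PHF12 itself had 947 and 756 counts, a fold of 0.753 (95% counting interval 0.683 to 0.829). Its RNA was thus only modestly lower, and 9.41% of the 14559 genes were at least 20% below the control. With 1 library per group, no difference has a replicate check, no test was possible, and every interval covers counting error only. The line was checked against markers. KRT8, KRT18, VIM and AXL were abundant, CDH1 had no counts, and 4 of the 8 markers of the lung epithelial lineage had no counts in either library. The summed level of those 8 was 1.31 against 1.06 per 1000000 transcripts, control against knockdown. The muscle markers ACTA1, CKM, DES, MYH7, MYH11 and MYOD1 summed to 0.629 and 0.423 on the same scale. Not all muscle genes were that low: TNNT1, from a longer muscle list read below, stood at 63.6 and 60.3 on that scale.

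Actin filaments are polymers of actin that carry cell shape, adhesion and contraction. In cells other than muscle, filaments are built from beta-actin and gamma-actin. Tropomyosins are coiled-coil dimers that lie end to end along the filament and influence which myosins and severing proteins can reach it, and the 4 genes make many isoforms by alternative promoters and splicing. Cofilin severs and disassembles filaments, profilin delivers actin monomers to growing ends, caldesmon binds actin, myosin and tropomyosin, and the regulatory light chain controls nonmuscle and smooth muscle myosin II. Many of these genes are known targets of serum response factor (SRF), which binds the CArG box with coactivators of the MRTF family that sense free actin.

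Promoter sequence is shown for the 2 members whose RefSeq windows (GRCh38.p14, 250 bases before to 50 after an annotated start) held a CArG box, because their ratios lay on opposite sides of 1. Of the 10 genes, 8 had at least 1 window and 15 windows in all, and ACTB and MYL9 were not matched. The capitals mark the box, the sequences run 5′ to 3′ on the gene's own strand, and only bases outside the gene's listed span are printed. The TPM4 sequence is chr19:16067288-16067506 on the plus strand, with the box from 173 to 164 bases before the start. The ACTG1 sequence is chr17:81512800-81513049 on the minus strand, with the box from 94 to 85 bases before the start.
TPM4 promoter: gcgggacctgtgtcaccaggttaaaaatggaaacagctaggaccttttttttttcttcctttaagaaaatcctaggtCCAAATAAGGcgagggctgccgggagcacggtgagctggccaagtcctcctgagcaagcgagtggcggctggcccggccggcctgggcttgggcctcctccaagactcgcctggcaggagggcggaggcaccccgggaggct
ACTG1 promoter: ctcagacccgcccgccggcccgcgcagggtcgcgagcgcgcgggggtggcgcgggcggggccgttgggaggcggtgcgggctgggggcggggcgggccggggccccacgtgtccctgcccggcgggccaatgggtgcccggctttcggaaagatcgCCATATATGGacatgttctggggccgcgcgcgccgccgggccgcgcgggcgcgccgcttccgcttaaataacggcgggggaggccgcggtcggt

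The box was found in 1 of the 3 TPM4 windows and in the only ACTG1 window. The windows of TPM1, TPM2, TPM3, CALD1, CFL1 and PFN1 held none, which says only that these letters are not in those windows. Of all 35116 windows in the table, 1.29% held a CArG box, and of the 11239 measured genes with a window, 171 genes or 1.52% did. Those 171 genes had a median log2 ratio of −0.01, with 15 genes at least 25% above the control level and 14 at least 20% below it, which is the same fold in either direction. These counts are 8.77% and 8.19% of the 171, beside 7.58% and 8.54% of the 11239 genes with a window, so the genes with a box stood near the background. A match is a description of letters and not a mapped binding site.

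A second sequence is shown because of all the members TPM4 alone held it. In the longest annotated 3′ UTR of TPM4 (GENCODE release 29, 1694 bases) the words ATCGGAG and TCGGAGA overlap to form ATCGGAGA, from base 240 of the UTR, on chromosome 19 from 16101492 to 16101499 on the plus strand (GRCh38). It is printed 5′ to 3′ with the joined word in capitals.
TPM4 3′ UTR site: aaatattttgtATCGGAGAagctttgagca

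All 7 annotated TPM4 transcripts with a 3′ UTR held both words. These words had been picked earlier as over-represented in 3′ UTRs of genes higher in this same knockdown library, TPM4 among them, so finding them in TPM4 is no separate evidence. A 3′ UTR was annotated for 12323 of the measured protein-coding genes, and 3.10% of these contained at least 1 of the 2 words. None of the other 9 genes held one. None of the 10 held ACATCGA or CATCGAA, the words picked in the same way from lower genes, which 2.71% of those genes held.

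The tropomyosins are described first, with gene positions as the table gives them (hg38). TPM4, on chromosome 19 from 16067507 to 16103005, had 5411 control counts and 12649 knockdown counts, the order kept for every pair of values here. Divided by gene length, the deposited levels were 88.2 and 198 TPM units (transcripts per 1000000, the unit and not the gene). The fold was 2.20 (2.14 to 2.28), a log2 ratio of 1.14. TPM4 products are found in many cells outside muscle, platelets among them, and no other gene listed overlaps its span. Among the 2369 genes averaging at least 100 CPM its ratio was the highest. Among 11069 protein-coding genes averaging at least 5 CPM it stood in place 2, between OGFR at 2.26 (2.07 to 2.46) and ZNF548 at 2.20 (1.71 to 2.84). In the wider background of all genes averaging at least 1 CPM, TPM4 stood in place 18 from the top. These places rest on the value that chose the group.

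TPM1, on chromosome 15 from 63042698 to 63071915, had 5651 and 5697 counts, or 88.3 and 85.4 TPM units. Its fold was 0.951 (0.916 to 0.986). TPM1 gives long and short isoforms in both muscle and other cells, and in the control library its level and that of TPM4 could not be told apart by counting error. TPM2, on chromosome 9 from 35681993 to 35690056, had 7853 and 8238 counts, or 396 and 398 TPM units. Its fold of 0.989 (0.959 to 1.02) did not differ from 1 beyond counting error. TPM3, on chromosome 1 from 154155308 to 154192100, had 12621 and 14573 counts, or 123 and 137 TPM units. Its fold was 1.09 (1.06 to 1.12), so of the other 3 tropomyosins it alone lay above 1 beyond counting error. TPM1 lies over the antisense gene TPM1-AS, which had 141 and 144 counts, and without a stated strand setting the reads of the overlap cannot be told apart.

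Within the family, the share of TPM4 in the summed tropomyosin level was 12.7% for the control and 24.2% for the knockdown. By this level per length TPM2 was the largest part in both, at 56.9% and 48.7%. TPM3 held 17.8% and 16.7%, and TPM1 held 12.7% and 10.4%. In raw counts, which are not divided by length, the share of TPM4 was 17.2% (exact binomial 95% interval 16.7% to 17.6%) of 31536 counts and 30.7% (30.3% to 31.2%) of 41157 counts. These shares contain the TPM4 value that chose the group and are given as a description. The summed level of the 4 genes was 696 and 818 TPM units, a ratio of 1.18 on that scale. Without TPM4 the sums were 608 and 620.5, a ratio of 1.02.

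**Figure D1:**
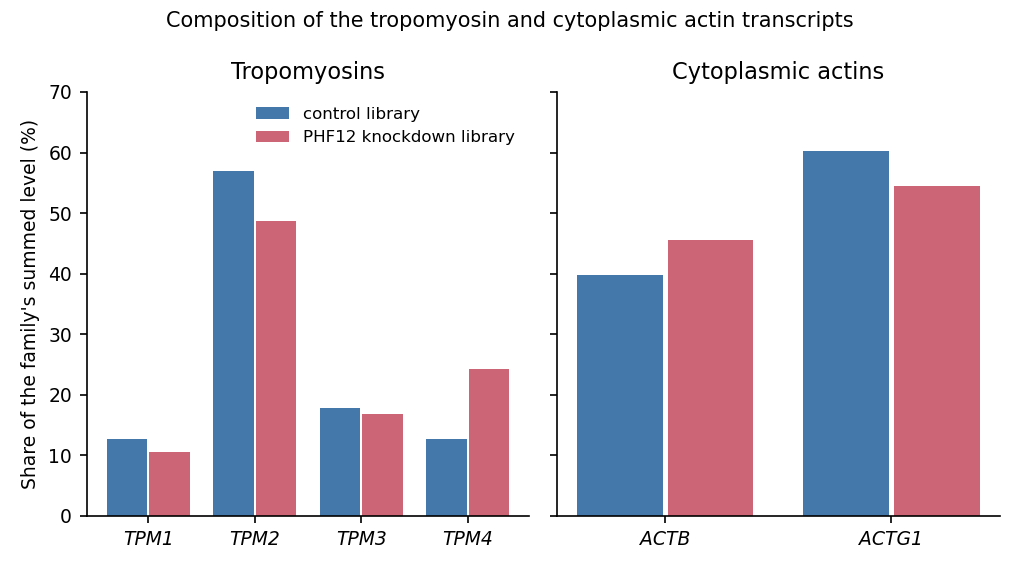
Bars give each gene's share, in percent, of its family's summed deposited level (TPM units), for tropomyosins on the left and cytoplasmic actins on the right, in the 1 control and the 1 knockdown library, with no error bars because there are no replicates. The TPM4 bar goes from 12.7% to 24.2%, and ACTB and ACTG1 come closer to each other.

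The cytoplasmic actins were the most abundant of the 10 genes, and their ratios lay on opposite sides of 1. ACTB encodes beta-actin, lies on chromosome 7 from 5527148 to 5530601 and had 49326 and 60950 counts, or 3061 and 3629 TPM units. Its fold was 1.17 (1.15 to 1.18), the highest after that of TPM4. ACTG1 encodes gamma-actin, lies on chromosome 17 from 81509971 to 81512799 and had 84091 and 82145 counts, or 4640.3 and 4349 TPM units. Its fold was 0.921 (0.912 to 0.930). ACTG1 was above ACTB in both libraries, by 1.52 times and then 1.20 times. The share of ACTB in the summed actin level was 39.7% and 45.5%. The sum itself was 7702 and 7978 TPM units, a ratio of 1.04, so the balance of the 2 actins differed more than their total. The coding sequences of these genes are similar, and the assignment of any reads that fit both is not given in the sources used here. Summed over genes, the tropomyosin level per 100 of summed actin was 9.03 for the control and 10.3 for the knockdown. Without TPM4 it was 7.89 and 7.78, so the higher value of the knockdown library rested on the gene that chose the group.

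Of the genes for turnover of actin, PFN1 was lower and CFL1 was level. PFN1 encodes profilin, lies on chromosome 17 from 4945652 to 4948530 and had 18225 and 16485 counts, or 1426 and 1238 TPM units. Its fold was 0.853 (0.835 to 0.871), the lowest of the 10. CFL1 encodes nonmuscle cofilin, lies on chromosome 11 from 65854673 to 65858180 and had 16594 and 17269 counts, or 1499 and 1497 TPM units. Its fold of 0.981 (0.961 to 1.003) did not differ from 1 beyond counting error. The end of CFL1 overlaps SNX32 on the other strand by 497 bases, and SNX32 was level too, at 0.986. In both libraries CFL1 was above PFN1, by 1.05 times and then 1.21 times.

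CALD1 and MYL9 were the least abundant. CALD1 encodes caldesmon, lies on chromosome 7 from 134779629 to 134970729 and had 1523 and 1679 counts, or 30.8 and 32.6 TPM units. Its fold was 1.04 (0.969 to 1.11), not different from 1 beyond counting error. MYL9 encodes a regulatory light chain, lies on chromosome 20 from 36541519 to 36551447 and had 1571 and 1509 counts, or 63.4 and 58.4 TPM units. Its fold was 0.906 (0.843 to 0.973). DLGAP4-AS1 covers MYL9 on the other strand but had only 15 and 19 counts.

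**Figure D2:**
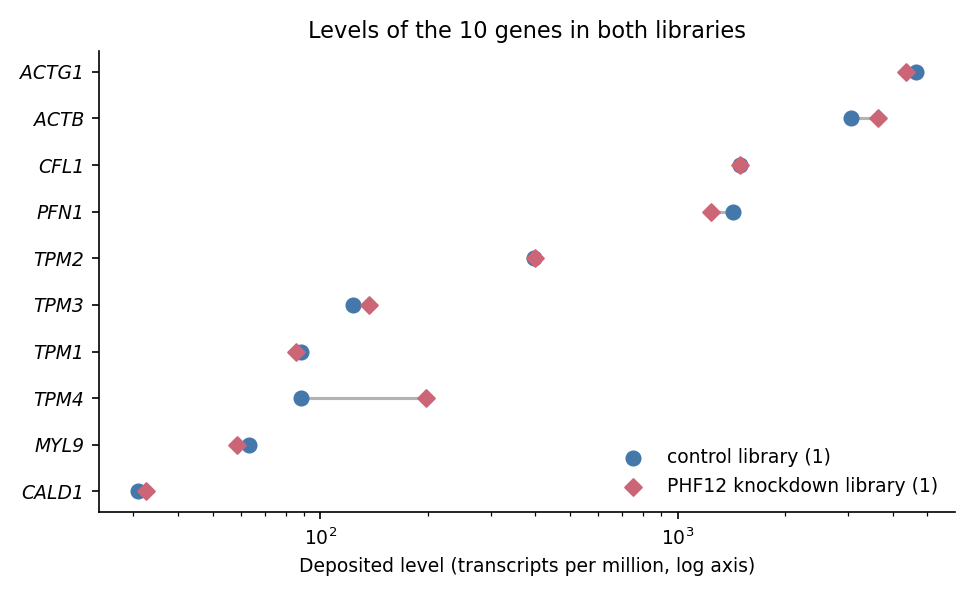
Each row is a gene, ordered by its control level, and the horizontal log axis gives the deposited level in TPM units for the control library (circles) and the PHF12 knockdown library (diamonds), 1 library each. TPM4 moves from 88.2 to 198 and passes TPM1 and TPM3, and the other 9 pairs nearly coincide.

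Ordered by level per length, the genes ran from ACTG1 through ACTB, CFL1, PFN1, TPM2, TPM3, TPM1, TPM4 and MYL9 to CALD1 in the control library. The counting intervals of neighbours overlapped for TPM1 and TPM4 but for no other neighbours. In the knockdown library TPM4 stood between TPM2 and TPM3, at 1.45 times the level of TPM3, and the order of the other 9 was as in the control. No interval of neighbours overlapped there. Levels per length rest on the gene lengths in the table, which do not follow the isoforms that a cell uses.

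Read against all genes, TPM4 was the 1 of the 10 that passed any fold counted here, and its choice used this contrast. Of the 14559 genes, 8.28% were at least 25% above the control and 9.41% at least 20% below it (the same fold in either direction), against 1 and 0 of the 10 genes. At 1.5-fold the shares were 2.16% higher and 2.29% lower, and at 2-fold 0.33% and 0.316%, again against 1 and 0. Abundant genes vary less: among the 2369 genes averaging at least 100 CPM, which include 8 of the 10 (not CALD1 and MYL9), 3.59% were at least 25% above and 3.21% at least 20% below. Of these abundant genes, 85.1% lay between 0.853 and 1.17, the range of the other 9 genes.

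Counting intervals are narrow at such depth. They lay wholly above 1 for 3 of the 10 genes (TPM3, TPM4 and ACTB) and wholly below 1 for 4 (TPM1, ACTG1, PFN1 and MYL9). Over the 14559 genes the shares were 20.3% above and 20.9% below. Among the 2369 abundant genes they were 36.5% and 30.5%, against 3 and 3 of 8. An interval that excludes 1 is thus common among abundant genes when 2 single libraries are compared. The median log2 ratio was −0.02 over the 10 genes and −0.03 without TPM4, beside −0.01 over all genes measured.

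**Figure D3:**
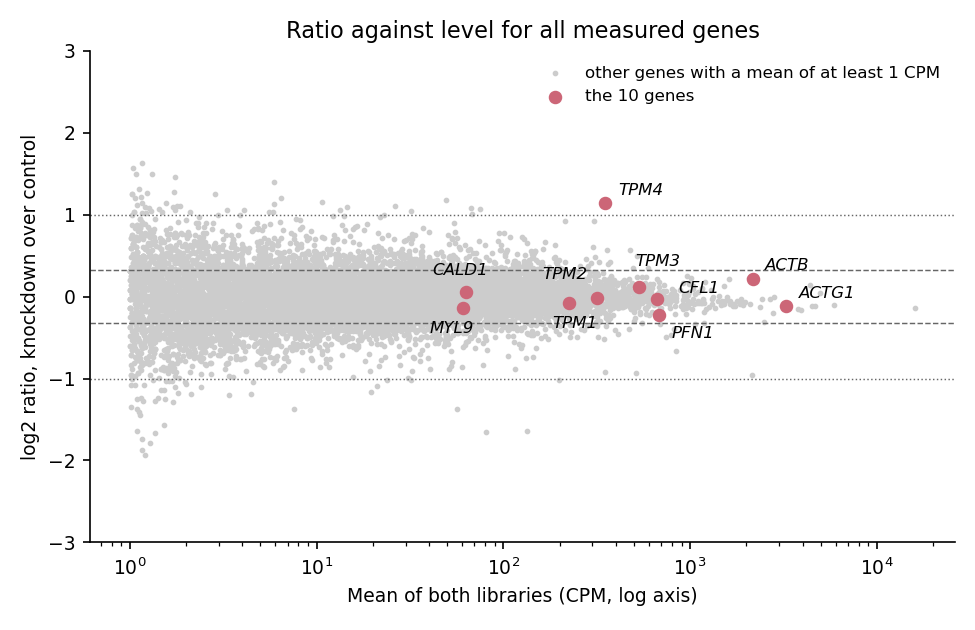
Each point is a gene averaging at least 1 CPM, with the mean of the 2 libraries on the horizontal log axis (CPM) and the log2 ratio of the knockdown over the control library on the vertical axis; dashed lines mark 25% above and 20% below the control, dotted lines 2-fold, and genes without counts in 1 library are not drawn. TPM4, at a log2 ratio of 1.14, stands above the cloud at its level, and the other 9 genes lie inside it.

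Genes next to TPM4 on chromosome 19 did not share its ratio as a group. RAB8A, a GTPase gene that starts 8884 bases beyond TPM4, stood at 0.923 (0.868 to 0.982) with 2083 and 2039 counts. FAM32A, 82179 bases away, stood at 1.55 (1.46 to 1.65), and AP1M1, 94906 bases away, at 0.921 (0.877 to 0.967). On the other side WIZ, the nearest measured gene, ended 617551 bases before TPM4 and stood at 1.02 (0.963 to 1.08).

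Of 2336 protein-coding genes averaging at least 100 CPM, the 3 with the log2 ratio nearest to that of TPM4, over these 2 libraries, were GANAB, NOLC1 and PAFAH1B2. GANAB, a subunit of glucosidase II in the endoplasmic reticulum, stood at 1.90 (1.84 to 1.97), a log2 ratio 0.21 below that of TPM4. NOLC1, a nucleolar phosphoprotein gene, stood at 1.89 (1.82 to 1.97) and PAFAH1B2 at 1.71 (1.61 to 1.81). Of these, NOLC1 held ATCGGAG or TCGGAGA in its longest 3′ UTR, and GANAB and PAFAH1B2 did not. Both words were picked from higher genes of this same library, so the match in NOLC1 is no separate evidence.

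The other actin genes were nearly silent. ACTA2, the smooth muscle alpha-actin gene, had 110 and 157 counts, 6.84 and 9.37 TPM units, and a fold of 1.35 (1.05 to 1.73). ACTC1 had 4 and 6 counts, ACTBL2 had 2 and 1, ACTA1 had 1 and 0, and ACTG2 had none in either library. The listed pseudogenes named after the members took few counts. All were of the transcribed type, and they were listed for TPM3, ACTG1, CFL1 and PFN1 only, not for ACTB. Reads taken by unlisted copies therefore cannot be seen. The listed pseudogene with the most counts relative to its parent, TPM3P9, had 69 and 106 counts, or 0.547% and 0.727% of those of TPM3. The leading ones of ACTG1, CFL1 and PFN1 were ACTG1P20 with 43 and 46 counts, CFL1P1 with 7 and 8, and PFN1P2 with 32 and 27.

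Tropomodulins cap the slow-growing end of tropomyosin-coated filaments. TMOD3, the most abundant of them, had 2561 and 3040 counts and a fold of 1.12 (1.06 to 1.18). TMOD1 stood at 0.873 (0.763 to 0.998) with 458 and 424 counts, and TMOD2 at 1.01 (0.822 to 1.24) with 184 and 197. TMOD4, LMOD1, LMOD2 and LMOD3 had at most 8 counts in a library.

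The wider actin machinery was read from 10 lists, of which 102 genes passed the minimum of 1 CPM. Of these 102 genes, 4 were at least 25% above the control level (counted as higher below) and 8 at least 20% below it (counted as lower), 90 lay in between, and the median log2 ratio was 0.003. Over all genes the shares past the same limits were 8.28% and 9.41%. None of these 102 genes reached 2-fold in either direction. Below the minimum, MYLK2, a myosin light chain kinase gene named after its values were seen, had 9 and 30 counts and a fold of 3.14 (1.45 to 7.53). The list of SRF with its coactivators and known targets had 0 higher and 2 lower of 13 genes, and a median log2 ratio of −0.13. Known targets among the 10 genes or placed in other lists were not counted in it. These values therefore describe the listed genes and not SRF targets at large. Its lowest gene was VCL, which encodes vinculin, a linker between integrins and actin, with 16719 and 9274 counts and a fold of 0.523 (0.510 to 0.537). A 3′ UTR was annotated for 105 cytoskeletal genes besides the 10, those of a sarcomere list included. Of these 105, 3 held ACATCGA or CATCGAA: VCL, INF2 at 0.934 and SSH2 at 0.918. Over the measured protein-coding genes with a 3′ UTR, 2.71% held at least 1 of these words. They were picked from lower genes of this same library, so the match in VCL is no separate evidence. TGFB1I1, a gene of the SRF list at 0.808, was the 1 of the 105 that held ATCGGAG or TCGGAGA, the words picked from higher genes. Over the same measured genes 3.10% held at least 1 of those. The other lower gene of the SRF list, chosen after its values were seen, was PDLIM7 at 0.725 (0.692 to 0.759). SRF stood at 0.987 (0.940 to 1.04), MRTFA at 1.24 (1.11 to 1.39) and MRTFB at 0.903 (0.806 to 1.01). The listed targets lay on both sides of 1. CCN1 stood at 1.15 (1.12 to 1.19) and CCN2 at 1.22 (1.17 to 1.27), both named after their values were seen. Of the 13 genes, counting intervals lay wholly above 1 for 3 and wholly below 1 for 6. Beside these counts, the shares were 20.3% and 20.9% over the 14559 genes. Among the 2369 genes averaging at least 100 CPM they were 36.5% and 30.5%.

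Nonmuscle myosin II and its regulators had 1 higher and 3 lower of 16 genes. MYL12A, a regulatory light chain gene close in sequence to MYL9, had 9269 and 6980 counts and a fold of 0.710 (0.688 to 0.733). Its neighbour and near copy MYL12B, named after its values were seen, stood at 0.752 (0.731 to 0.773), and both were further below 1 than MYL9. The third lower gene, also named after its values were seen, was the phosphatase subunit gene PPP1R12B at 0.768 (0.625 to 0.941). The reads of these 3 light chain genes are uncertain where their sequences match. The heavy chain gene MYH9 stood at 1.17 (1.15 to 1.19) and the phosphatase subunit gene PPP1CB, the 1 higher gene, at 1.27 (1.22 to 1.33); both were likewise named after their values were seen.

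Filament nucleation, branching and crosslinking gave few large differences. The formin gene FMN1 stood at a log2 ratio of 0.59 (0.43 to 0.74) with 564 and 898 counts, the 1 higher gene among 14 formins and ENA/VASP genes, with 0 lower. ARPC1B was the 1 lower gene among 10 of the Arp2/3 complex, at 0.791 (0.775 to 0.808), with 0 higher. TAGLN, the transgelin gene, was the 1 higher of 13 crosslinkers and bundlers, at 1.27 (1.09 to 1.47). ADD3, the gamma-adducin gene, was the 1 lower of 11 capping and severing genes, at 0.751 (0.669 to 0.842). The cofilin list had 0 higher and 1 lower of 16, the coronin gene CORO1A with 58 and 36 counts, named after its values were seen. SSH3, a cofilin phosphatase, followed at 0.802 (0.695 to 0.924). Monomer-binding proteins had none in either direction among 5, with TWF2 at 0.884 (0.838 to 0.932). Of 21 muscle genes, listed as sarcomere markers though SMTN, MYH11, MYOD1 and MYOG are not sarcomere genes, only 5 passed 1 CPM. SMTN was 1 of the 5, and 7 of the 21 had no counts. NEB stood at 1.15 (1.03 to 1.29) on 532 and 650 counts. TNNT1, named after its values were seen, stood at 0.932 (0.842 to 1.03) on 765 and 756 counts. MYH3, the 1 of those 5 counted as higher and named after its values were seen, had 37 and 52 counts. Its fold of 1.33 (0.853 to 2.08) did not differ from 1 beyond counting error. Of the genes named outside the 10, ACTA2, VCL, MRTFA, ARPC1B and TAGLN overlap FAS, AP3M1, SGSM3, PDAP1 and PCSK7, in that order, on the other strand, so part of their counts is uncertain.

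**Figure D4:**
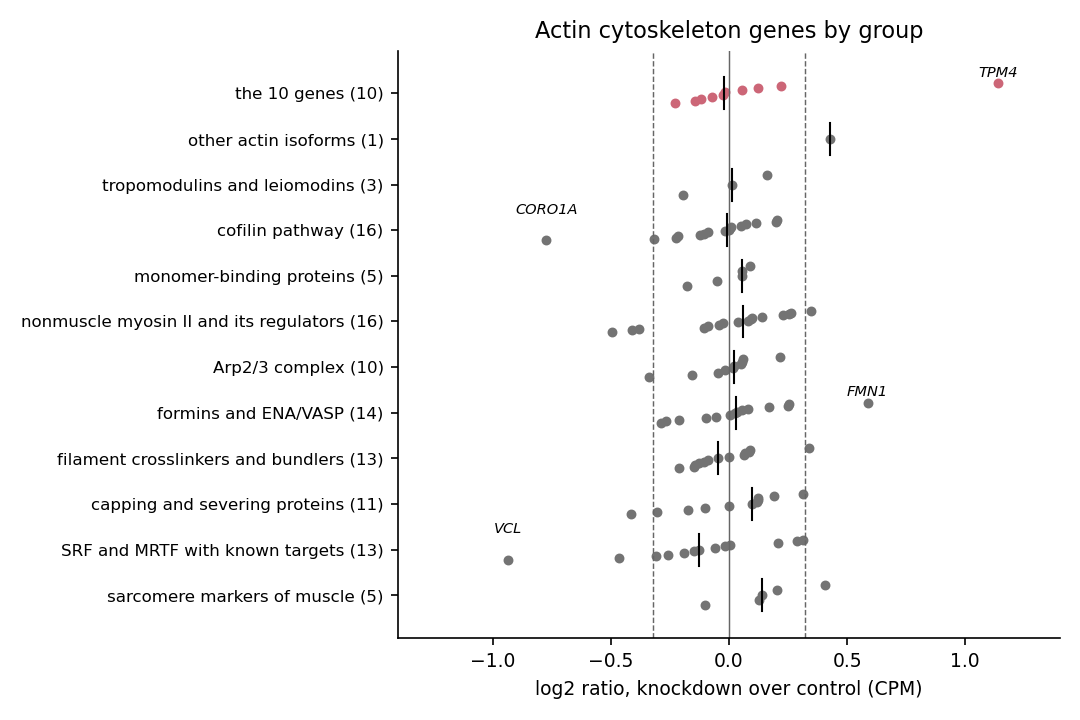
Each point is a gene averaging at least 1 CPM, in rows by list with the number of genes in brackets, placed by its log2 ratio of the knockdown over the control library; bars mark medians, dashed lines 25% above and 20% below the control, and genes past 1.5-fold are named. TPM4 is the point farthest right, and VCL the farthest left.

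The keratin genes KRT8 and KRT18 were lower in the same comparison, at 0.760 (0.746 to 0.775) and 0.796 (0.782 to 0.809), while KRT19 had only 5 and 13 counts. The spans of KRT8 and KRT18 overlap each other on opposite strands, so part of their counts is uncertain too. The 4 mesenchymal markers lay on both sides of 1. VIM stood at 0.896 (0.888 to 0.904), AXL at 0.975 (0.959 to 0.990), FN1 at 0.932 (0.854 to 1.02) and CDH2 at 1.16 (1.06 to 1.26). Their part in the ratios of the 10 genes was not tested. In bulk RNA, more cells that express a gene and more RNA per cell cannot be told apart. An effect of PHF12, one of the knockdown procedure and a difference between single cultures cannot be told apart either.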

How the data were processed

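RNA was measured in 2 libraries, 1 per group, assigned by the treatment label, and table columns were matched by sample title. Reads were processed with HISAT2 and HTSeq on hg38, per the submitters' processing notes; versions, strand setting and the handling of reads that fit several genes: not given in the sources used here. Raw counts per gene and TPM values (transcripts per 1000000) were deposited by the authors, per the file headers. Control counts over gene length, rescaled to sum to 1000000, returned the deposited TPM to within 2e-11. All per-sample columns were matched, and no row lacked a gene name.

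TMM factors were computed from the counts with edgeR 4.0.16 (R 4.3.3) and were 0.997 (control) and 1.003 (knockdown). Folds are ratios of CPM on these sizes, with no pseudocount, beside exact conditional 95% intervals for 2 Poisson counts (Python 3.11.15, scipy 1.17.1). The ratio and its interval were tested on simulated counts. Genes averaging at least 1 CPM formed the background, and differences were counted at 25% above or 20% below the control, at 1.5-fold and at 2-fold. No p-value was made.

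The members and lists were chosen with earlier results of these data known. Named are all members, PHF12, in each list the genes past 1.5-fold with at least 5 CPM and an interval that excludes 1 (or else the gene with the largest ratio), all listed actins, tropomodulins and leiomodins, the leading pseudogenes, and the 3 genes nearest to TPM4. Alternatives were other scalings (DESeq2 1.42.0 among them), pseudocounts, filters and the deposited TPM. Promoter windows came from RefSeq (GRCh38.p14) and 3′ UTRs from GENCODE release 29, matched by symbol.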

Additional observations from a re-analysis of the deposited data

How the results depend on the processing

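The log2 ratio of TPM4 ran from 1.13 to 1.17 over scaling by total counts, DESeq2 size factors, centring on genes with at least 100 CPM, the deposited TPM values and pseudocounts of 0.5 and 1 CPM. The number of members at least 25% above the control was 1, and at least 20% below it 0, under each of these, at 1.5-fold and 2-fold, and, for higher genes, with pseudogene counts added. Of 60 member values, 56 stayed within their counting interval and 0 changed sign among members whose interval excludes 1. Each scaling, the centring and the deposited TPM add the same amount to every log2 ratio. The tally therefore mainly reflects interval width and is no independent check. TPM2, whose interval includes 0, had a log2 ratio of 0.01 with the deposited TPM values. ACTB moved to 0.24 and 0.25, and ACTG1 to −0.10 and −0.09, with DESeq2 size factors and deposited TPM. The scalings moved the median of all genes by at most 0.025 (log2).

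The share of all genes at least 25% above or 20% below the control depended on the filter. It was 21.1% and 20.8% with no filter on low counts, 5.87% and 6.28% at 5 CPM, 3.59% and 3.21% at 100 CPM, and 6.68% and 8.86% for protein-coding genes only. With DESeq2 size factors it was 9.13% and 8.52%, and the lower share was 8.93% with total counts. In raw counts, which weight long genes, TPM4 held 17.2% of tropomyosin (control) and 30.7% (knockdown), and tropomyosin over actin was 0.236 and 0.288. The counts of the members leave little counting error, and with a single library per group the spread between cultures was not measured. No paired analysis was possible because each group has 1 library.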
